A study of Danio rerio with 12 samples.

Results

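Among 12 RNA-seq libraries from adult zebrafish kidneys, 4 stood apart from the other 8 in their expression profiles, and the 4 came from both genotypes. They were wild-type replicate 3 and heterozygous replicates 1, 2 and 3, that is 1 of the 3 wild-type samples and 3 of the 9 samples from fish with 1 mutated copy of pdx1 (pdx1+/-), a homeobox gene of pancreas development. The 4 were chosen by their scores on the first principal component of the most variable genes, so every difference in expression between them and the other 8 is given as a description, with no test. Whole kidneys of adult fish were taken in both genotypes, no treatment is named, and the labels give no strain, age, sex, pdx1 allele, batch or pooling. The 4 samples follow each other in the order in which the series lists them, but the submitters numbered them 3, 10, 11 and 12. Neither is stated to be an order of collection or sequencing. The labels do not say that replicates are separate fish, so p-values measure only the spread between these samples.

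The zebrafish kidney holds nephrons, which filter blood and recover solutes, and, packed around them, the main blood-forming tissue of the fish. It also holds the interrenal steroid cells and the chromaffin cells that in mammals make up the adrenal gland. A library from the whole organ therefore averages over tubule, vessel, blood and endocrine cells, and in such a library fewer cells of a type and less RNA per cell cannot be told apart. Laboratory zebrafish are outbred, and gene copies that differ between fish are common in this species. Estimated counts come from matching reads to reference transcripts, and reads that fit several transcripts are divided among them.

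On the 1000 most variable genes, the first component held 20.9% of the variance. Where values of the 4 are listed, wild-type replicate 3 comes first, followed by heterozygous replicates 1, 2 and 3. Their scores were 30.5, 42.6, 36.15 and 39.4 in this order. In the other 8 kidneys the score lay between -25.7 and -7.07. The groups did not overlap, and the gap between them was 55.0% of the whole range of scores. The second component held 19.02% and followed ddc, the aromatic amino acid decarboxylase gene, which was either over or under 1000 CPM (counts scaled to a library of 1000000). Both ddc ranges were present on each side, 2 high and 2 low among the 4 and 4 high and 4 low among the other 8. The separation depended on the genes that entered. The gap was 68.0% with 500 genes and 10.9% with 2000, while with all 23732 tested genes the groups overlapped. They also overlapped on this component without heterozygous replicate 1 or 2. After genotype and ddc range were fitted and removed, the first component of the residuals held 28.2% of the variance and its gap was 63.7%, and with all tested genes that gap was 41.5%.

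**Figure D1:**
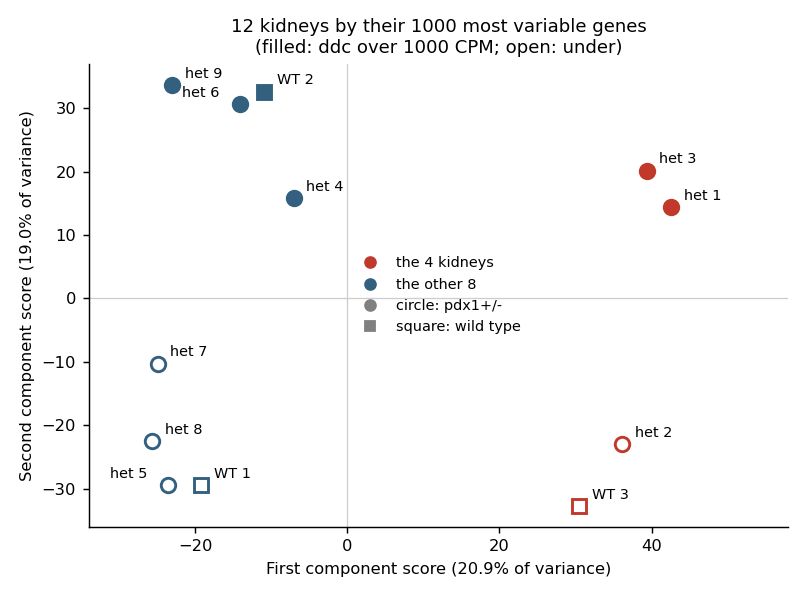
Scores of the 12 kidneys on the first (x axis) and second (y axis) principal component of log2 CPM; red points are the 4 kidneys, blue points the other 8, squares wild type and circles pdx1+/-, filled where ddc was over 1000 CPM. The 4 lie between 30.5 and 42.6 on the first component and the other 8 between -25.7 and -7.07, with both ddc ranges and both genotypes on each side.

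For 4 summary measures of the libraries, no difference between the 4 and the other 8 passed an exact test. All 4 measures come from the same quantification as the levels that chose the kidneys, and the summed TPM is itself a sum of levels. Total estimated counts were 17383320 ± 903643 in the 4 (SD, n = 4) and 17864099 ± 766937 in the other 8 (SD, n = 8; exact two-sided permutation test over all 495 choices of 4 from 12, p = 0.376, adjusted p = 0.752). Mean fragment length, derived from the ratio of counts to TPM of 6 mitochondrial genes, was 194 ± 10.1 bases against 196 ± 10.1 bases (exact permutation p = 0.735, adjusted p = 0.788). The share of tested genes with counts that were not whole numbers was 49.3 ± 0.679% against 49.6 ± 0.24% (exact permutation p = 0.259, adjusted p = 0.752). The TPM summed over all listed genes was 93.9 ± 0.468% of the full TPM total against 94.0 ± 0.604% (exact permutation p = 0.788, adjusted p = 0.788). The p-values were adjusted over these 4 measures. Ribosomal RNA took from 4.101% to 8.41% of counts in the 4 and from 5.59% to 9.10% in the other 8. Mitochondrially encoded mRNA took from 3.88% to 6.23% against 4.603% to 7.39%, so both ranges overlapped. The markers of proximal tubule, podocyte and erythroid cells that define the organ were present on both sides, as described with the cell type lists.

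One library of the 4 stood apart in its own way. The transcription factor gene klf2a, which responds to blood flow in endothelium, took 9.98% of all counts in heterozygous replicate 2. Its share in the other 11 libraries was 0.121% to 0.213%. Results that rest on that library are given with and without it.

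Few genes had levels without overlap between the 4 and the rest, and shifts that left an overlap are not counted here. A gene was counted as apart when its CPM in all 4 kidneys lay above, or in all 4 below, that in the other 8 and the fitted difference, with genotype and ddc range in the fit, was at least 2-fold. Of 23732 tested genes, 83 were apart and higher in the 4, which is 0.35% of tested genes, and 89 were apart and lower, which is 0.375%. Without the limit on the fold, 197 genes (0.83%) lay wholly above and 215 (0.906%) wholly below. Genes next to the fold limit were nek11, at a fitted log2 difference of 1.01 (from 2.02 to 2.21 CPM in the 4 and from 0.724 to 1.58 CPM in the other 8), and plk3 just outside it, at 0.998 (from 88.0 to 220.2 CPM against 42.6 to 76.5 CPM). The genes apart were often low in level or at 0. A mean under 2 CPM was found for 45.3% of them and for 19.7% of tested genes, and a count of 0 in at least 1 library for 29.7% against 3.94%.

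The sharpest contrast was in pgd, which encodes 6-phosphogluconate dehydrogenase, a NADPH-making enzyme of the pentose phosphate pathway. It was listed at 0 in all 4 kidneys. The wild-type kidneys among the other 8 had 80.1 and 175.7 CPM, and the 6 heterozygous ones had from 59.7 to 197 CPM. The gene was thus abundant in every one of the other 8, at a mean of 118 ± 48.0 CPM (SD, n = 8). That mean is 679.5-fold above a floor of 3 counts per library in the 4.

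Neighbours of one another in the gene order, scin and tmem106bb followed the same pattern. The actin-severing protein gene scin was listed at 0 in the 4. In the other 8 it lay at 3.45, 11.12 and 15.7 CPM (lowest, median and highest), with their mean 59.4-fold above the floor. For tmem106bb, of a family of lysosomal membrane proteins, the 4 were again listed at 0. The other 8 lay at 4.54, 12.5 and 15.5 CPM, with their mean 63.3-fold above the floor. With pgd these were the only genes lower in the 4 that had at most 3 counts in each of the 4 and at least 20 in each of the other 8 (0.0126% of tested genes).

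Next to them, arl4ab, a small GTPase gene of the ARF-like family, was at 0.162, 0, 0.245 and 0.183 CPM in the 4. The lowest, median and highest of the other 8 were 7.15, 15.2 and 21.2 CPM, so the groups were far apart. A lipid phosphatase gene of the same stretch, pip4p2, was listed at 0 in the 4. It lay between 0.815 and 2.06 CPM in the other 8, with their mean 8.24-fold above the floor. The nucleosome-binding protein gene hmgn1a was at 0 in 3 of the 4 and at 0.165 CPM in heterozygous replicate 1. It was nearly as low in wild-type replicate 1, at 0.175 CPM, and lay between 8.85 and 32.4 CPM in the remaining 7, so 1 of the other 8 had the level of the 4.

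The formaldehyde-oxidising enzyme gene adh5 did not follow the 4 as a block. Heterozygous replicate 3 had 26.8 CPM, and the other 3 of the 4 were listed at 0. The other 8 lay between 29.9 and 76.3 CPM, so heterozygous replicate 3 was just below their lowest value.

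Higher in the 4, cdc42l, a gene of the CDC42 family of small GTPases, was at 10.8, 23.3, 15.7 and 10.9 CPM in the 4. It was listed at 0 in each of the other 8, and the mean of the 4, 15.2 CPM, was 90.2-fold above the floor. Its neighbour mlf2, which encodes a myeloid leukemia factor, was at 43.5, 64.5, 31.3 and 42.1 CPM in the 4 and at no more than 0.818 CPM in the other 8, with 5 of them listed at 0. The water channel gene aqp8a.1 was at 3.40, 2.48, 2.88 and 1.89 CPM and listed at 0 in the other 8. Its mean in the 4 was 15.8-fold above the floor. Genes with at most 3 counts in each of the other 8 and at least 20 in each of the 4 numbered 5, or 0.0211% of tested genes. Besides cdc42l and aqp8a.1 they were LOC110437989 and a pair without a symbol.

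Both groups had counts of birc2, an inhibitor of apoptosis and ubiquitin ligase of TNF receptor signalling. The 4 had 132, 101, 267 and 103 CPM of it. The other 8 lay at 5.54, 7.06 and 9.04 CPM (lowest, median and highest), and the fitted log2 difference was 4.36. Every one of the 4 was above 100 CPM and none of the other 8 reached 10 CPM. It was the only gene apart and higher in the 4 with a mean of at least 50 CPM and a symbol that is not a clone name.

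The 4 had from 18.1 to 22.1 CPM of zfp36l2, which binds AU-rich mRNAs and promotes their decay, and the other 8 had from 0.170 to 0.818 CPM (fitted log2 difference 5.32). A protein phosphatase gene, ppm1bb, was at 25.6 to 30.1 CPM against 2.32 to 4.20 CPM (3.05). The mitochondrial F-box gene fbxl4 was at 4.16 to 8.43 CPM against 0.588 to 1.13 CPM (3.0). The signalling GTPase gene rras2 was uneven within the 4, at 22.2, 28.0, 7.66 and 7.58 CPM, against 2.71 to 6.70 CPM in the other 8 (1.87). The levels of wnt4b, a secreted Wnt ligand, were 4.16 to 11.15 CPM against 0 to 3.46 CPM (2.43).

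**Figure D2:**
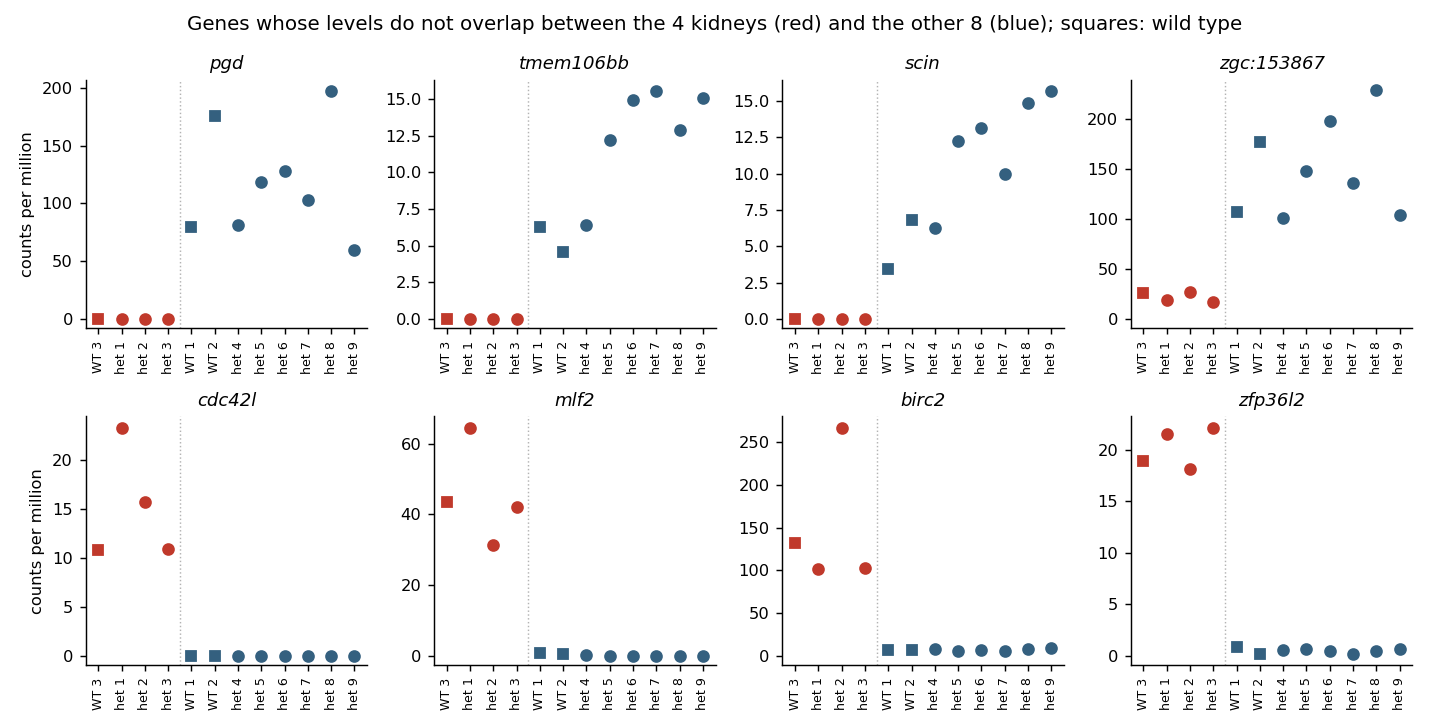
Level in CPM (y axes, linear, starting at 0) of 8 genes in each kidney (x axis), with the 4 kidneys in red left of the dotted line, the other 8 in blue, and squares for wild type. The genes pgd, tmem106bb and scin are listed at 0 in the 4 and cdc42l in the other 8, while birc2 is above 100 CPM in each of the 4 and at most 9.04 CPM elsewhere.

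Among abundant genes pgd and birc2 differed strongly, while the differences in tom1l2b and mrtfab were smaller. The endosomal sorting adaptor gene tom1l2b was at 71.0, 98.1, 76.4 and 103.3 CPM in the 4. In the other 8 it was at 172, 190.1 and 231 CPM (lowest, median and highest), a fitted log2 difference of -1.16. The serum response factor coactivator gene mrtfab was at 123, 92.4, 56.0 and 79.5 CPM against 143, 182 and 308 CPM, a fitted log2 difference of -1.18. Its highest value among the 4 was close to the lowest of the other 8. Together with pgd these were the genes apart and lower in the 4 with a mean of at least 50 CPM and a symbol that is not a clone name. The uncharacterised zgc:153867 was lower as well, at 16.9 to 26.7 CPM in the 4 and 101 to 228 CPM in the other 8 (-2.79), and it has a clone name.

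Further genes lower in the 4 included atp13a2, a lysosomal polyamine transporter, at 3.25 to 7.88 CPM against 10.4 to 30.7 CPM in the other 8. The fish TRIM gene ftr56 was at 0.245 to 0.733 CPM against 3.80 to 13.2 CPM, and the immunity-related GTPase gene irgf1 at 0.378 to 2.27 CPM against 2.81 to 7.53 CPM. Levels of the cyclin gene ccnq were 0.672 to 2.09 CPM against 3.15 to 9.27 CPM. The zinc transporter gene slc39a1 was at 0 to 2.70 CPM, with none of the other 8 under 2.98 CPM, and levels of sh3bgrl2 were 1.53 to 2.70 CPM against 4.69 to 8.91 CPM. None of these overlapped, and the margin was narrow for irgf1 and slc39a1.

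Over the 12 libraries, the 10 genes whose log2 CPM was most alike the first component were arl4ab, tmem106bb, pip4p2, cdc42l, scin, LOC110437989, pgd, mlf2, LOC100332698 and a gene with no symbol. Pearson's r was between 0.970 and 0.986 in size, a description over 12 libraries that share the scaling. Each of the 10 had entered the component itself, and 68 of its 1000 genes were genes apart.

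Many of the genes apart lay near one another in the genome. Gene order was taken from the RefSeq table of assembly GRCz12tu, which placed 149 of the genes apart and 21200 tested genes. Runs were formed where at most 20 tested genes lay between consecutive genes apart and at least 3 genes apart followed each other. There were 16 such runs on 8 chromosomes. They held 85 genes apart, or 57.0% of those placed, within 398 tested genes, or 1.88% of those placed. The runs were defined by the genes apart, so these shares describe how the genes are arranged and are not a test. Genes in the runs that were not apart numbered 313 and had a median fitted log2 difference of -0.04, beside -0.00 over all tested genes. Differences in opposite directions cancel in such a median, so it does not show that these genes were unchanged. Single ones were shifted, such as rpl10 (-3.39) and si:dkeyp-46h3.6 (3.45).

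Directions were mixed within 6 of the 16 runs. The run from ptp4a3b to akirin1 held 10 genes apart among 55, 8 higher and 2 lower in the 4, with wnt4b, cdc42l and mlf2 side by side and fbxl4 further along. One from eif2ak1, the heme-regulated kinase of translation, to mrtfab held 9 of 28, all lower, among them tom1l2b, the spindle protein gene dlgap5 and mlst8, a subunit of the TOR complexes. In the run from zgc:153867 to nlrp12l, 9 of 64 genes were apart, 3 higher and 6 lower, with pgd inside it. Another, from trit1 to tpd52, held 7 of 21, 1 higher and 6 lower. In it arl4ab, scin, tmem106bb and pip4p2 were consecutive tested genes. One from itk to aga held 9 of 36, with 2 higher and 7 lower, and 2 of these, wnt8a and wnt8-2, had the same values in every library and may share their reads.

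**Figure D3:**
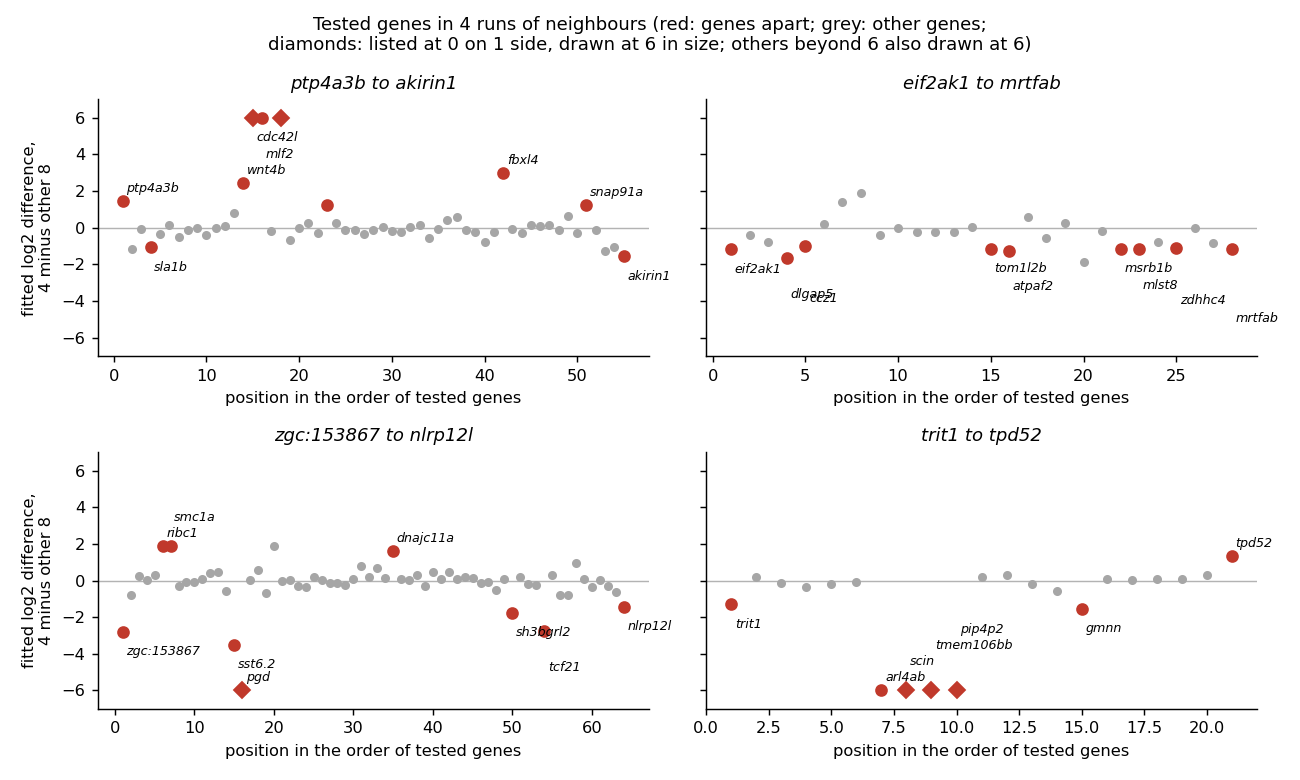
Fitted log2 difference, the 4 kidneys minus the other 8 (y axis), of all tested genes in 4 runs of neighbours, in gene order (x axis, number of the gene from the start of the run); red marks genes apart and grey the other genes. Diamonds are genes listed at 0 on 1 side, drawn at 6 in size, as are other differences beyond 6. Most grey points lie near 0. Some red points are several log2 units away, but many are only a little beyond the fold limit, and single grey points lie as far out as those.

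Some neighbouring genes had levels in steps, a group picked after its values were seen. In hspa14, which encodes an Hsp70 that acts at the ribosome, the 4 kidneys had 23.4, 17.7, 23.5 and 17.5 CPM. An intermediate level was found in heterozygous replicates 4, 5 and 8, at 13.6, 10.9 and 11.9 CPM, and in wild-type replicate 1, at 12.6 CPM. Heterozygous replicates 6, 7 and 9 were listed at 0, as was wild-type replicate 2. The other 8 thus split into 4 kidneys at an intermediate level and 4 at 0, each with both genotypes.

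The same 4 kidneys were listed at 0 for tspan9b, a tetraspanin gene, and dmtf1, a Myb-like transcription factor gene, with 5 and 3 tested genes between each and hspa14. For tspan9b the 4 kidneys set apart lay between 6.72 and 8.52 CPM and the intermediate ones between 2.24 and 3.78 CPM. For dmtf1 they lay between 1.96 and 3.02 CPM and between 0.815 and 1.76 CPM. The autophagy receptor gene optn, with 35 tested genes between it and hspa14, was lowest in the same 4 as well, at 0.678 to 3.38 CPM, then 4.68 to 7.13 CPM in the intermediate ones and 16.1 to 46.99 CPM in the 4 set apart.

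Near pgd another set of kidneys was at or near 0. The mitochondrial chaperone gene dnajc11a was listed at 0 in heterozygous replicates 6 and 8 and was at 0.284 CPM in wild-type replicate 2. In the remaining 5 of the other 8 it lay between 8.36 and 11.2 CPM, and in the 4 set apart between 14.7 and 19.6 CPM. The cohesin gene smc1a and its neighbour ribc1, which encodes a protein of ciliary microtubules, were lowest in the same 3 kidneys. Their levels there were at most 0.364 CPM for smc1a and 0.156 CPM for ribc1, against 2.02 to 3.19 CPM and 4.21 to 6.72 CPM in the 4. Which kidneys of the other 8 were at 0 therefore differed between the stretch around hspa14 and the stretch around pgd.

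**Figure D4:**
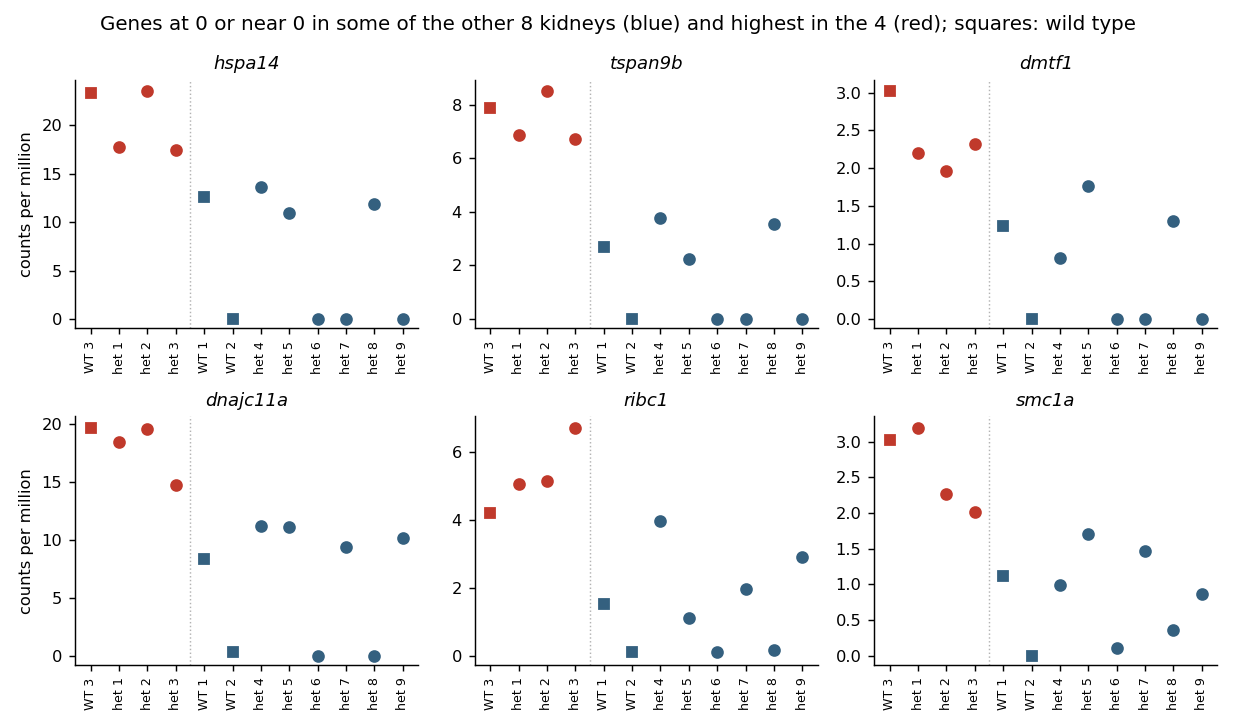
Level in CPM (y axes, linear, starting at 0) of 6 genes in each kidney (x axis), the 4 kidneys in red, the other 8 in blue, squares for wild type. In the top row wild-type replicate 2 and heterozygous replicates 6, 7 and 9 are listed at 0; in the bottom row wild-type replicate 2 and heterozygous replicates 6 and 8 are lowest.

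Present or absent states were compared over all 12 kidneys. A total of 167 genes had at most 3 counts in some libraries and at least 20 in all the others, in 85 different patterns, and 8 of them matched the 4 against the other 8. For 59 the odd library out was a single one, 14 of them at 0 or near 0 in wild-type replicate 1 alone. Over the remaining 108 genes, pairs of kidneys within the 4 were in the same state at 62.0% to 74.1% of genes (median 65.3% of 6 pairs). Pairs within the other 8 shared 48.1% to 75.9% (median 64.8% of 28 pairs), and pairs across shared 35.2% to 52.8% (median 44.4% of 32 pairs). Without the 8 matching genes the medians were 62.5%, 62.0% and 48.0%. On the median, the 4 were about as alike as the other 8 were, and pairs across shared fewer states. Such genes come from the same counts that chose the 4, so the lower sharing across is tied to that choice. It is a description and no separate support for the split.

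Whether genes with several copies take part was described from the counts. A count that is not whole arises where kallisto divides reads between transcripts of different genes. Counts that were whole in some libraries and not in others were found for 45.9% of the 172 genes apart and 21.0% of tested genes. A count of 0 is itself whole, and 29.7% of genes apart had a 0 in at least 1 library, against 3.94% of tested genes. This excess therefore cannot be told apart from the excess of zeros. Counts that were not whole in any of the 12 libraries were found for 31.4% against 37.4%, and at least 1 count that was not whole for 77.3% against 58.3%. When every gene with such a count was left out, 39 genes apart remained. Among the genes present on 1 side alone, counts were not whole in 6 libraries for pgd and in 8 for scin and tmem106bb. The number was 3 for cdc42l, 4 for aqp8a.1, 0 for LOC110437989 and 6 for each of the pair without a symbol. For birc2 and zfp36l2 it was all 12, so levels of such genes depend on how shared reads were divided. Gene families known for many or variable copies in fish, 20 families with 341 tested members, held 4 genes apart or 1.17%, beside 0.725% of all tested genes. They were ftr56, the NOD-like receptor genes nlrp16 and nlrp12l, and the globin gene hbae4. Of the 64 tested finTRIM genes 1 was apart, of 15 MHC class I genes 0, of 6 MHC class II genes 0, and of 40 chemokine genes 0. Whether differing gene copies make the counts differ was not tested.

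Cell type and pathway markers overlapped between the 4 and the other 8. In none of 45 lists, with 1233 tested genes, did the per-kidney score of the list (mean log2 CPM of its members, each centred on its mean over the 12) separate the groups. Of the 1233 genes 6 were apart, or 0.487%, beside 0.725% of all tested genes, and 3 of the 6, gmnn, itk and tcf21, lay in the runs of neighbours. A total of 38 lists held no gene apart. The median fitted log2 difference ranged from -0.91 to 0.62 over the lists, beside -0.00 over all tested genes.

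Of the nephron lists, 11 of 41 proximal tubule genes had a fitted difference above 0 and 30 below, with a median of -0.20 and none apart. Their summed level was 8492 to 12822 CPM in the 4 and 10771 to 15435 CPM in the other 8. The list score was -0.56 in heterozygous replicate 2. It was -0.03 in wild-type replicate 3 and -0.04 and 0.08 in heterozygous replicates 1 and 3. The difference in mean list score was -0.20 with heterozygous replicate 2 and -0.06 without it. Among the 24 genes of distal tubule and collecting duct the median was 0.18, with none apart. Podocyte genes, of the filtering cells of the glomerulus, had a median of 0.07 over 21, and the 1 apart was tcf21, a transcription factor gene of podocytes and stroma. It was at 0.540, 0.275, 0.429 and 0.306 CPM in the 4 and at 1.34 to 4.63 CPM in the other 8. Other podocyte markers did not share this, with nphs1, the slit diaphragm gene, at 15.3 to 22.1 CPM against 10.5 to 21.9 CPM.

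All 45 tested cell cycle genes had a fitted difference below 0, with a median of -0.61, and 44 of them overlapped between the groups. The 1 apart, gmnn, which encodes the replication inhibitor geminin, was at 1.47 to 2.54 CPM in the 4 and 4.38 to 8.96 CPM in the other 8, and it lay in the run around scin. The list score was 0.31 in wild-type replicate 3 and -0.43, -1.08 and -0.67 in heterozygous replicates 1, 2 and 3. In the other 8 it was 0.33 to 1.09 with low ddc and -0.48 to 0.02 with high ddc. Wild-type replicate 3, with low ddc, was just below the low-ddc range, and heterozygous replicate 2, also with low ddc, was far below it. Of the kidneys with high ddc, heterozygous replicate 1 lay within the high-ddc range and heterozygous replicate 3 below it. Replication-dependent histone genes had a median of -0.37 over 14, with none apart. Of 26 erythroid genes, of the red cell lineage, 24 had a fitted difference below 0, the median was -0.50 and none was apart. The summed level was 6536 to 16365 CPM in the 4 and 5835 to 27860 CPM in the other 8, and the carbonic anhydrase gene cahz was at 68.0 to 269.6 CPM against 66.2 to 861 CPM. Without heterozygous replicate 2 the difference in mean list score went from -0.49 to -0.29 for erythroid genes and from -0.70 to -0.50 for cell cycle genes.

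Of 39 T and NK cell genes, 35 had a fitted difference above 0, and the median was 0.53. The 1 apart was itk, a kinase of T cell receptor signalling, at 11.8, 12.5, 21.4 and 20.04 CPM in the 4 and 3.85 to 10.01 CPM in the other 8. The T cell factor gene tcf7 was at 4.101 to 11.6 CPM against 1.98 to 4.29 CPM and overlapped. The list score of wild-type replicate 3, -0.27, was below that of the other 3, and the difference in mean score was 0.51 with heterozygous replicate 2 and 0.36 without it. Of 15 interrenal genes, of steroid synthesis, 13 had a fitted difference above 0, the median was 0.47 and none was apart. The cholesterol carrier gene star was at 59.0, 333, 294 and 312 CPM in the 4, against 7.19 to 182 CPM in the other 8. Wild-type replicate 3 thus lay within the range of the other 8, and the 3 heterozygous kidneys above it.

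Inflammatory genes and immediate early genes rested on 1 library. Their medians were 0.62 over 33 and 0.35 over 33, and the differences in mean score, 0.44 and 0.26, were -0.02 and -0.09 without heterozygous replicate 2. The cyclooxygenase gene ptgs2a was at 36.08 CPM in that library and at no more than 0.540 CPM in the other 3 of the 4, and klf2a was at 107984 CPM there and at 1290 to 1533 CPM in those 3. The gene apart in the inflammatory and neutrophil lists was mmp9, a matrix metalloproteinase, at 26.8, 26.2, 129.9 and 24.9 CPM in the 4 and 8.12 to 24.8 CPM in the other 8. The lowest of the 4 and the highest of the rest were nearly equal. Of 32 heat shock and unfolded protein genes 1 was apart, hsp70l, an inducible Hsp70, at 26.4 to 47.03 CPM against 6.16 to 21.0 CPM, and the list had a median of 0.08. Neutrophil genes had a median of 0.10 over 28, and the difference in mean score went from 0.13 to 0.07 without heterozygous replicate 2.

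Exocrine pancreas genes had a median of -0.91 over 8 tested, with none apart. Their summed level was 85.8 to 115 CPM in the 4 and 86.6 to 206 CPM in the other 8. The list score was 2.83 in heterozygous replicate 8 and 1.88 in heterozygous replicate 4. In the remaining kidneys of the other 8 it was -1.10 to 0.37, and in the 4 it was -0.80 to -0.18. The trypsin gene prss1 was at 0.165 to 0.756 CPM in the 4 and reached 29.4 CPM in heterozygous replicate 8. Hepatocyte genes had a median of -0.48 over 30, and the difference in mean score went from -0.50 to -0.10 without heterozygous replicate 4, where fga, a fibrinogen chain gene, was at 109 CPM against at most 1.503 CPM in the other 11 libraries. Endocrine pancreas genes, with a median of 0.36 over 8 tested, and oocyte genes, with 0.44 over 7, summed to at most 79.0 CPM in any library. The 1 apart was nlrp16 of the oocyte list, at 0.756 to 1.65 CPM against 0.175 to 0.565 CPM. The part of any cell type in the separation of the 4 was not tested.

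**Figure D5:**
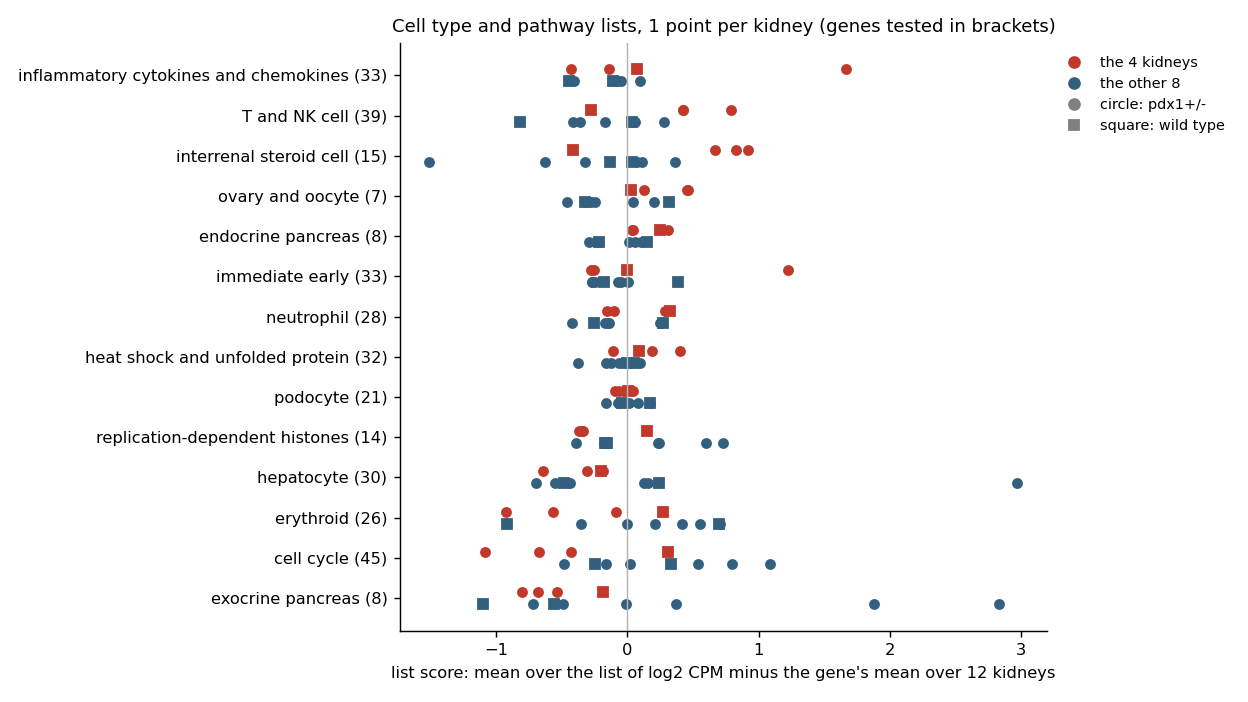
Score of 14 gene lists in each kidney (x axis, mean over the list of log2 CPM minus the gene's mean over the 12 kidneys); red points are the 4 kidneys, blue points the other 8 and squares wild type, with the number of tested genes in brackets. The red and blue ranges overlap in all 14 lists, and 1 red point, heterozygous replicate 2, lies far to the right in the inflammatory and immediate early lists.

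Genotype was tested with the 4 kidneys and ddc range as covariates. Estimated counts of pdx1 itself were low, at 6, 0, 0 and 0 in the 4. Of the other 8, the wild-type kidneys had 14 and 10 and the heterozygous ones 8, 0, 7, 0, 10 and 2. With the covariates 2 genes passed (0.00843% of tested genes), and 1711 had an unadjusted p under 0.05. Without covariates 1 gene passed and 1347 had an unadjusted p under 0.05.

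LOC795699 was called with and without them. Within the 4 kidneys it was at 0.378 CPM in the wild-type one and at 13.5, 9.25 and 10.9 CPM in the heterozygous ones. Within the other 8 it was at 0.292 and 0.681 CPM in wild type and at 7.11 to 13.4 CPM in heterozygous kidneys. Its difference between genotypes was thus present on both sides (edgeR quasi-likelihood test with Benjamini-Hochberg adjustment, log2 difference 4.40, adjusted p = 1.64e-06).

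The other call, si:rp71-1f1.6, appeared with the covariates (log2 difference 8.79, edgeR adjusted p = 0.0081). It was at no more than 0.108 CPM in the 3 wild-type kidneys. In heterozygous replicates 1 to 9 it was at 175, 3.86, 121, 120, 1.02, 89.7, 1.87, 0.729 and 90.02 CPM. The 5 heterozygous kidneys with high ddc were those above 80 CPM, and the 4 with low ddc were below 4 CPM, so heterozygous levels followed the ddc range. Within each ddc range the heterozygous kidneys of the 4 set apart were highest. With high ddc the margin was narrow, at 121 CPM in heterozygous replicate 3 and 120 CPM in heterozygous replicate 4. In RefSeq's gene order both genes lie on the chromosome of pdx1, with 50 and 16 listed genes between them and it.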

How the data were processed

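RNA from 12 adult zebrafish kidneys, 3 wild-type and 9 pdx1+/-, was sequenced on BGISeq-500 libraries, per the labels' protocols. The submitters' processing notes name Trim Galore 0.6.4 for trimming, kallisto (given there as 0.4.6) for quantification and build GRCz11, while annotation and strand setting are not given in the sources used here. Each sample's deposited files hold the authors' estimated counts (expected counts, not normalized) and TPM for 30238 gene IDs. RefSeq (GRCz12tu) named 25812 of them and gave gene order.

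Counts were rounded. Genes passing filterByExpr (minimum count 10; 23732) were scaled by TMM and fitted in edgeR 4.0.16 (R 4.3.3), with genotype, membership of the 4 and ddc range (over or under 1000 CPM) as terms. Log2 CPM used a prior count of 2. Genotype was tested by quasi-likelihood with an adjusted p threshold of 0.05, library measures by exact permutation (scipy 1.17.1). TPM entered fragment length and alternatives on log2(TPM + 1). Alternatives used limma 3.58.1 and DESeq2 1.42.0. Fits were tested on simulated data. Totals were 16041392 to 19483852 counts per library, and 3 counts correspond to 0.156 to 0.184 CPM; floors cover counting error only. No pair of libraries agreed within sampling noise (lowest chi-square per gene 17.3). Whole counts were taken within 0.001.

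The 4 kidneys, the lists and the rules were chosen with earlier results of these data known. Named genes were, among genes apart with a symbol that is not a clone name, the 12 with the largest fitted difference per direction (mean of at least 2 CPM), the 10 largest with a mean of at least 50 CPM, genes present on 1 side alone, the 10 most like the first component, ddc, pdx1 and up to 4 genes per list. Lists were described where the median was at least 0.3 in size or a gene was apart, and the nephron lists were added. Other genes named were chosen after their values were seen.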

Additional observations from a re-analysis of the deposited data

Results flagged for a closer look

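A library far from the rest of its group was looked for in 158 sets of 4 or 8 values, and 21 were found. Chance alone flags about 1 in 20 among independent sets. Many genes here were chosen for their values and some vary together, so the 21 cannot be measured against that rate. Among the 4, heterozygous replicate 3 had the lowest total, 16041392 estimated counts, and the 1 level of adh5 above 0, 26.8 CPM. Heterozygous replicate 2 had the highest level of klf2a (107984 CPM) and of the stress and inflammatory response genes atf3 (135 CPM), mmp9 (129.9 CPM), jun (67.1 CPM), ptgs2a (36.08 CPM) and il6 (8.15 CPM). Wild-type replicate 3 had the lowest star, 59.0 CPM.

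Among the other 8, heterozygous replicate 4 had the highest levels of genes of liver-made proteins, apoa2 (229 CPM), fga (109 CPM), c9 (84.9 CPM), fgg (66.3 CPM) and cfb (35.98 CPM), and of the histone gene hist1h4l (12.9 CPM). Heterozygous replicate 8 had the highest levels of the pancreatic enzyme genes prss59.2 (43.9 CPM), prss1 (29.4 CPM), prss59.1 (23.5 CPM) and cel.2 (9.16 CPM). Heterozygous replicate 7 had the highest ptgs2a of these 8 (3.45 CPM), and wild-type replicate 1 the highest cebpb (103 CPM).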

How the results depend on the processing

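The gap of the 4 on the first component was 68.0% of the range with 500 genes and 10.9% with 2000, and the groups overlapped (negative gap) with all tested genes (-36.1%), with log2(TPM + 1) (-85.9%), without genes whose counts were not whole (-90.2%) and, an alternative chosen after seeing the data, without the genes apart (-81.9%). Leaving out 1 replicate gave -19.7% (without heterozygous replicate 1) and -16.2% (without heterozygous replicate 2) to 62.4%. On residuals of genotype and ddc range the gap was 63.7%; by alternatives of that value chosen after seeing the data, it was 50.6% without the genes apart, 18.4% without counts that were not whole, 41.5% with all genes, 48.8% with log2(TPM + 1), and 37.9% to 70.1001% leaving out 1 replicate. The cause of these changes was not tested.

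The 172 genes apart were 94 with a filter at a mean of 2 CPM, 92 in limma on log2(TPM + 1), 275 with a fold of 1.5, 66 with a fold of 4, 39 with whole counts only, and 175 to 316 leaving out 1 replicate (316 without wild-type replicate 3, 259 without heterozygous replicate 3). With a library fewer, levels more easily lie without overlap, so a rise is built into this last count. Of the 172, 156 to 169 were again apart when 1 replicate was left out. Genes in runs numbered 75 and 108 with gaps of 10 and 50 genes in place of 20, against 85. The 32 genes checked, ddc and genes apart, kept their direction in all 5 other fits. Genes apart were chosen for not overlapping in the same counts, so this is no separate support. On log2(TPM + 1) 19 of the 32 moved by more than 1 SD.

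The 2 genotype calls were 1 without covariates, 1 with membership of the 4 alone and 3 with ddc range alone. There was 1 call in limma on log2(TPM + 1) and there were 139 in DESeq2. Leaving out 1 replicate gave 1 to 5 calls (4 without wild-type replicate 2, 5 without heterozygous replicate 2 or 5, 1 without wild-type replicate 1). With the replicate number as a block there were 0 calls in edgeR, and ddc range could not be fitted beside the block. Only replicates 1 to 3 occur in both genotypes, so the block fit had almost nothing left to estimate the spread from. Its 0 calls therefore cannot show whether the genotype calls depend on pairing. Same-numbered samples had correlations of -0.22, -0.16 and 0.10. Each of these pairs also differed in ddc range, so the correlations cannot show whether the numbers pair samples. The difference in fragment length, -1.85 bases, was -5.86 to 2.36 leaving out 1 replicate (2.36 without heterozygous replicate 1). That in summed TPM, -0.0666 percentage points, was 0.222 in heterozygous samples only and -0.245 to 0.156 leaving out 1 replicate (above 0 without wild-type replicate 3 or heterozygous replicate 9). Depth limits genes under 3 counts, which are listed at 0 or near it.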
